A study of Homo sapiens with 12 samples.

Results

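The genes described here are the fusion partners PAX3 and FOXO1 and 7 genes reported as targets of the PAX3-FOXO1 fusion protein: FGFR4, ALK, TFAP2B, NOS1, OLIG2, PIPOX and JARID2. They were taken by symbol from a table of gene expression with 65975 gene identifiers, and all 9 were found. The table holds mRNA sequencing of 2 rhabdomyosarcoma (RMS) cell lines, RD, which is fusion-negative (FN-RMS), and Rh30, which is fusion-positive (FP-RMS). Each line was stably transduced with lentivirus carrying either a control shRNA (Scramble) or an shRNA against the histone demethylase KDM3A (KDM3A-sh2), and all cells were selected with puromycin. There were 3 libraries in each of the 4 groups. The sample titles number the Rh30 Scramble libraries 1 to 3, but their column headers all end in 1, unlike those of the other groups. Separate cultures are not named in the labels, and p-values therefore measure only how far these libraries vary, which may be technical. With 1 line of each kind, and RD grown in DMEM but Rh30 in RPMI, cell line, fusion status and culture medium cannot be told apart. As only 1 shRNA against KDM3A was sequenced, loss of KDM3A and other effects of this shRNA cannot be told apart either.

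In FP-RMS, a chromosomal translocation joins the start of PAX3, which encodes a paired-box and homeodomain transcription factor of muscle progenitors and neural crest, to the end of FOXO1, which encodes a forkhead transcription factor held in check by insulin and growth factor signalling. The fusion protein keeps the DNA-binding domains of PAX3 and the transactivation domain of FOXO1, and it activates enhancers near genes of the myogenic and neural programmes. FGFR4 and ALK encode receptor tyrosine kinases, TFAP2B and OLIG2 encode transcription factors that serve as markers of FP-RMS, NOS1 encodes neuronal nitric oxide synthase, PIPOX encodes a peroxisomal oxidase of pipecolic acid and sarcosine, and JARID2 encodes an accessory subunit of Polycomb repressive complex 2 (PRC2).

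The sequence on each side of the typical fusion junction is shown first, because the expression table gives 1 value per gene and so counts reads of the fusion transcript together with reads of normal PAX3 and FOXO1. The fusion keeps PAX3 up to the end of exon 7 and FOXO1 from the start of exon 2. In the GENCODE 29 transcripts used here this is 1539 of 3170 bases (48.5%) of the PAX3 transcript and 4720 of 5735 bases (82.3%) of the FOXO1 transcript. The last 60 bases of PAX3 exon 7 (GRCh38 chr2:222220140-222220199, minus strand) and the first 60 bases of FOXO1 exon 2 (chr13:40560801-40560860, minus strand) are given 5′ to 3′, with the 12 bases next to the junction in capitals. Reads over the junction itself were not analysed here.
PAX3 exon 7: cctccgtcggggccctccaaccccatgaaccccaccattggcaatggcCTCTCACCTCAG
FOXO1 exon 2: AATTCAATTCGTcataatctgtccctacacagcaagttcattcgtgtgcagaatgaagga

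Promoter windows of RefSeq (GRCh38.p14), which run from 250 bases before to 50 bases after a transcription start, were matched for 8 of the 9 genes, in 11 windows. They were searched on both strands for the 2 kinds of short motif that PAX3 is known to bind. The homeodomain core TAAT, read as ATTA on the opposite strand, occurred in 50.2% of all 35116 windows and in 6 of the 11 windows of these genes. The paired-domain core GTCAC, read as GTGAC on the opposite strand, occurred in 42.5% of all windows and in 4 of the 11. Of the 3 windows printed below, that of PAX3 (chr2:222298949-222299248, minus strand) is shown because it held both motifs, as did 1 window of JARID2, that of TFAP2B (chr6:50818621-50818920, plus strand) because it held 3 homeodomain cores, and that of NOS1 (chr12:117309361-117309660, minus strand) because it held 2 paired-domain cores. The other window of JARID2, which is not printed, held 3 paired-domain cores. Capitals mark the matches, and a match is no evidence of binding.
PAX3 promoter: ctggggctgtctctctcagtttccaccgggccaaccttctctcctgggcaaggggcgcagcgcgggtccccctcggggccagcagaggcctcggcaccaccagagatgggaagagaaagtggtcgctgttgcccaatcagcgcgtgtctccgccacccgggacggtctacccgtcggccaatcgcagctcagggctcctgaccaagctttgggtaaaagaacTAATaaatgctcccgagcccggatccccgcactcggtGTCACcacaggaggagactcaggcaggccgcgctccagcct
TFAP2B promoter: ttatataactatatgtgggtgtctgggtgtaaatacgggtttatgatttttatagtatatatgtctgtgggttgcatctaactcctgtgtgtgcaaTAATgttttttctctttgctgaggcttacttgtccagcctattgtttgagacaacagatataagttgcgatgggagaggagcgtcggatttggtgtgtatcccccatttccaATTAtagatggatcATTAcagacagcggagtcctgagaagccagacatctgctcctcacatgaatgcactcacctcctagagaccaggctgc
NOS1 promoter: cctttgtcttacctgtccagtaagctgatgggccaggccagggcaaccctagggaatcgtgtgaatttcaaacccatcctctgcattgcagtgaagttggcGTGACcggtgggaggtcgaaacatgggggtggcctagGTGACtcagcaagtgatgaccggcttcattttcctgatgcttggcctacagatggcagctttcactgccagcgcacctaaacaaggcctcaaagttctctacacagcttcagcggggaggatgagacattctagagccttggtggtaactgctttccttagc

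Expression is given as FPKM, fragments scaled to transcript length and library size. Between 17473 and 17983 genes reached 1 FPKM in each library, and the size of the lowest steps in the values put the depth at between 16900000 and 23100000 reads. KDM3A itself fell with the shRNA from 33.5 ± 2.50 to 12.2 ± 1.10 FPKM in RD (SD, n = 3) and from 29.7 ± 2.14 to 14.1 ± 1.15 FPKM in Rh30, and its groups did not overlap in either line. The skeletal muscle markers DES, MYOD1, MYOG, CHRNA1 and CHRNG were detected in both lines, with MYF5 near 0, and the 6 markers summed to between 2067 and 2718 FPKM in every library. This sum was higher with KDM3A-sh2 in each line, at 2067 to 2283 against 2595 to 2718 FPKM in RD and 2212 to 2445 against 2618 to 2645 FPKM in Rh30, and its part in the results below was not tested. Single markers moved both ways in the tests described below. Of 5 tested, 3 were called higher in RD and 2, MYOD1 and MYOG, lower, against 21.6% and 19.5% of all genes. In Rh30 2 were called higher and 1, CHRNA1, lower, against 15.3% and 13.2%. Summed endothelial markers were at most 1.96 FPKM, epithelial markers at most 7.74 FPKM, melanocytic markers at most 6.81 FPKM and glial markers at most 2.26 FPKM. The 4 leukocyte markers summed to at most 0.803 FPKM in Rh30 and to between 14.8 and 24.4 FPKM in RD, of which CD68 gave nearly the whole.

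PAX3 (ENSG00000135903, chr2:222199888-222298996, minus strand) was expressed in both lines. It was read at 16.3, 17.4 and 14.6 FPKM in the RD Scramble libraries and at 9.80, 7.45 and 7.23 FPKM with KDM3A-sh2. In Rh30 it was read at 54.2, 62.8 and 49.5 FPKM in the Scramble libraries and at 81.5, 71.3 and 77.6 FPKM with KDM3A-sh2. The 4 groups were fully separate, in the order RD KDM3A-sh2, RD Scramble, Rh30 Scramble and Rh30 KDM3A-sh2, so the shRNA groups lay outside the control groups in opposite directions in the 2 lines.

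FOXO1 (ENSG00000150907, chr13:40469953-40666597, minus strand) was low in RD and high in Rh30. RD Scramble libraries had 4.68, 5.30 and 6.52 FPKM and RD KDM3A-sh2 libraries had 6.88, 4.31 and 4.30 FPKM, and these 2 groups overlapped. Rh30 Scramble libraries had 57.1, 57.5 and 34.3 FPKM, and Rh30 KDM3A-sh2 libraries had 78.3, 61.5 and 85.0 FPKM. Rh30 Scramble replicate 3 was the low one of its group, and relative to its mean FOXO1 had the widest spread between Rh30 libraries of the 9 genes, with an SD of 13.3 FPKM around a Scramble mean of 49.6 FPKM.

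The FOXO1 to PAX3 ratio, both per length, separated the lines in Scramble libraries. It was 0.287, 0.305 and 0.447 in RD Scramble and 1.05, 0.915 and 0.693 in Rh30 Scramble. With KDM3A-sh2 it was 0.702, 0.578 and 0.595 in RD and 0.962, 0.862 and 1.10 in Rh30. The ratio thus stood between 0.693 and 1.10 in Rh30 and between 0.287 and 0.702 in RD. Over all libraries the lines overlapped, as RD KDM3A-sh2 replicate 1 (0.702) lay above Rh30 Scramble replicate 3 (0.693). FOXO1 was below PAX3 in every RD library, and in every Rh30 library but Scramble replicate 1 and KDM3A-sh2 replicate 3. These ratios are a description of gene-level values, with no test. The fusion keeps 48.5% of the PAX3 transcript and 82.3% of the FOXO1 transcript, so equal FPKM is no mark of the fusion.

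**Figure D1:**
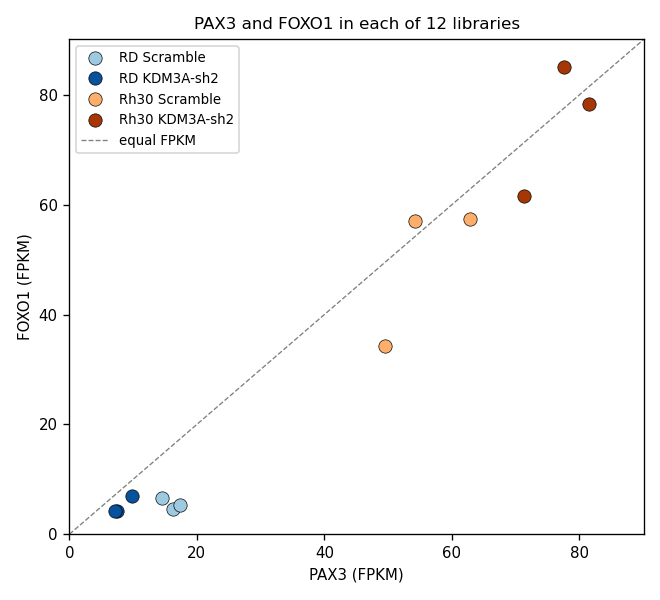
FOXO1 against PAX3 in FPKM, with 1 point for each of the 12 libraries, coloured by group, and a dashed line where both are equal. The 6 RD libraries lie below 20 FPKM on both axes, and the 6 Rh30 libraries lie on both sides of the dashed line. Rh30 Scramble replicate 3 lies farthest below it among the Rh30 libraries, at a ratio of 0.693. KDM3A-sh2 lies left of Scramble in RD and right of it in Rh30.

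The 2 receptor kinases differed in how much of them RD expressed. FGFR4 (ENSG00000160867, chr5:177086886-177098144, plus strand) had the highest FPKM of the 9 genes in both lines, at 110, 112 and 122 FPKM in RD Scramble and 550, 540 and 475 FPKM in Rh30 Scramble. With KDM3A-sh2 it was 87.6, 91.1 and 90.0 FPKM in RD and 442, 426 and 458 FPKM in Rh30, below every Scramble library of the same line. ALK (ENSG00000171094, chr2:29192774-29921566, minus strand) was barely above the filter in RD, at 1.77, 2.07 and 1.62 FPKM with Scramble and 1.80, 1.90 and 1.65 FPKM with KDM3A-sh2. In Rh30 it stood at 33.2, 33.8 and 34.7 FPKM with Scramble and at 46.7, 46.4 and 48.1 FPKM with KDM3A-sh2, a shift larger than the spread within either group.

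The transcription factors TFAP2B and OLIG2 were near 0 in RD. TFAP2B (ENSG00000008196, chr6:50818723-50847613, plus strand) had 0.0150, 0.00654 and 0.00758 FPKM in RD Scramble and 0.0743, 0.00813 and 0.00924 FPKM in RD KDM3A-sh2, which corresponds to about 0.87 to 8.46 fragments in a library. In Rh30 it had 14.3, 14.4 and 13.0 FPKM with Scramble and 15.6, 15.4 and 16.7 FPKM with KDM3A-sh2. OLIG2 (ENSG00000205927, chr21:33025845-33029196, plus strand) was listed at 0 in 3 of the 6 RD libraries and at no more than 0.0217 FPKM in the others. In Rh30 it had 11.5, 11.0 and 10.6 FPKM with Scramble and 15.8, 14.0 and 14.2 FPKM with KDM3A-sh2. Neither gene overlapped between the lines or between the 2 Rh30 groups.

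Of the 2 enzymes, NOS1 (ENSG00000089250, chr12:117208142-117452170, minus strand) was near 0 in RD and PIPOX was low but detected. NOS1 had 0.168, 0.0174 and 0.0161 FPKM in RD Scramble and 0.0334, 0.0427 and 0.0433 FPKM in RD KDM3A-sh2. The first of these, RD Scramble replicate 1, stood apart at about 41.6 fragments against 10.1 or fewer in the other RD libraries. Rh30 libraries had 53.5, 48.8 and 48.9 FPKM of NOS1 with Scramble and 58.0, 61.2 and 62.4 FPKM with KDM3A-sh2. PIPOX (ENSG00000179761, chr17:28950513-29057220, plus strand) had 2.17, 1.47 and 1.64 FPKM in RD Scramble and 1.95, 2.57 and 3.53 FPKM in RD KDM3A-sh2, and these groups overlapped. In Rh30 it rose from 79.8, 74.2 and 75.8 FPKM to 103, 102 and 96.3 FPKM, with no overlap.

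JARID2 (ENSG00000008083, chr6:15246296-15522040, plus strand) differed least between the lines. Its values were 7.61, 7.85 and 7.93 FPKM in RD Scramble and 9.01, 9.28 and 9.58 FPKM in RD KDM3A-sh2. Rh30 Scramble had 11.7, 12.3 and 12.0 FPKM and Rh30 KDM3A-sh2 had 13.9, 14.1 and 14.3 FPKM. The 4 groups did not overlap, and KDM3A-sh2 lay above Scramble in both lines.

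**Figure D2:**
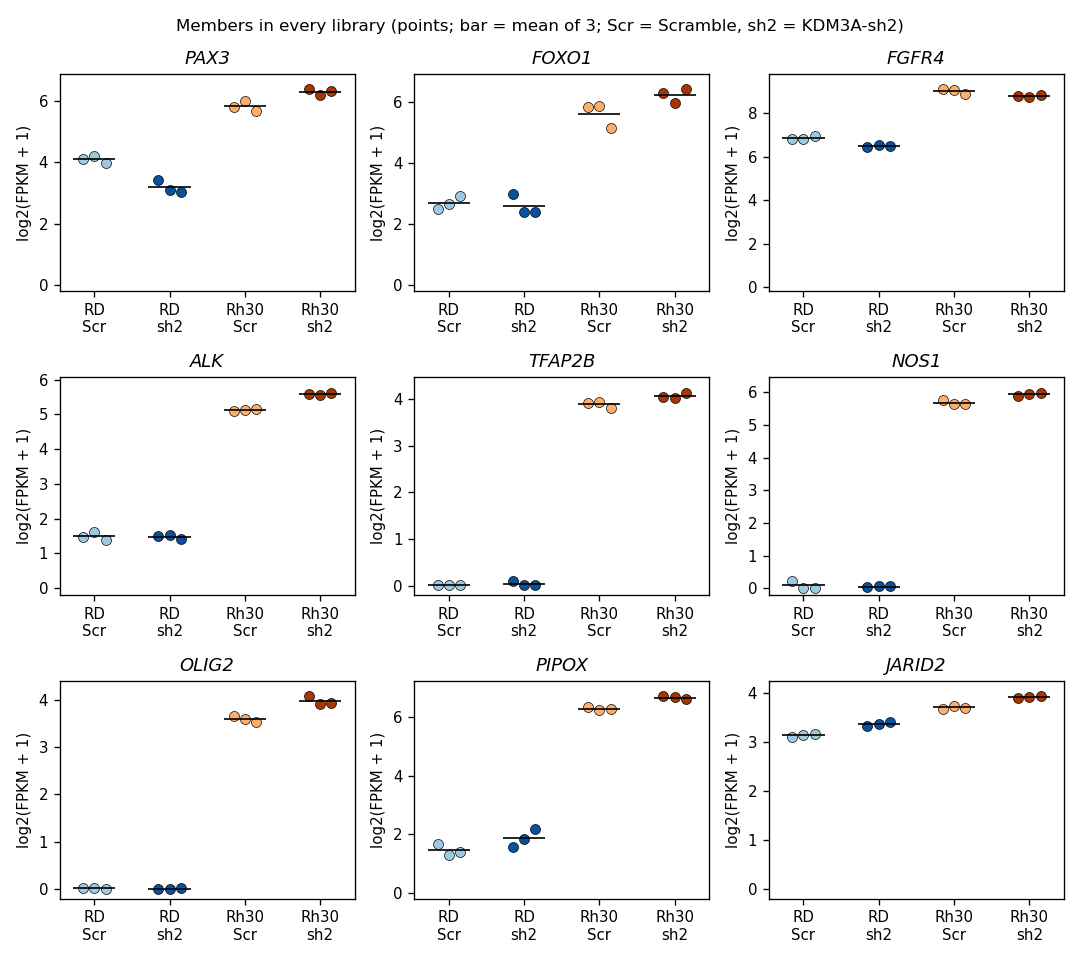
Each panel plots 1 of the 9 genes as log2(FPKM + 1), with 3 libraries (points) and their mean (bar) in each of the 4 groups. All 9 genes lie higher in Rh30 than in RD, TFAP2B, NOS1 and OLIG2 sit at the floor in RD, and PAX3 moves down with KDM3A-sh2 in RD and up in Rh30.

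The first comparison asked how the 9 genes differed between the FP-RMS and the FN-RMS line. With Scramble shRNA all 9 were upregulated in Rh30 over RD at an adjusted p under 0.05 (limma on log2(FPKM + 1), Benjamini-Hochberg adjustment over 18357 genes), against 35.0% of all genes called higher and 39.6% called lower. Of these, TFAP2B, NOS1 and OLIG2 entered the fit only through their Rh30 values and had to differ. For the 6 genes at 1 FPKM or more in both lines, all 6 were called higher. The genes were put together because they are reported as targets in FP-RMS, so their direction is no independent result. In bulk RNA, fewer cells expressing a gene and less RNA of it per cell cannot be told apart.

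By size, the smallest difference was that of JARID2, at 1.54-fold (log2 difference 0.56, SE 0.06, limma adjusted p = 0.000119). PAX3 was 3.45-fold higher in Rh30 (1.72, SE 0.10, adjusted p = 4.99e-06) and FOXO1 9.02-fold higher (2.93, SE 0.21, adjusted p = 1.46e-05), both as ratios of mean FPKM. FGFR4 was 4.54-fold higher (2.17, SE 0.07) and ALK 18.6-fold higher (3.63, SE 0.08), so the receptor with the lower level in RD had the larger ratio. PIPOX was 43.6-fold higher (4.82, SE 0.10), the largest ratio among genes detected in both lines. For NOS1, TFAP2B and OLIG2 no ratio is given, since the RD level was near 0, and the log2 differences of 5.59, 3.88 and 3.57 depend on the added pseudocount of 1. With a pseudocount of 0.1 they were 8.36, 6.99 and 6.65.

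The KDM3A-sh2 libraries, which the Scramble comparison did not use, gave the same comparison once more. Again all 9 genes were called higher in Rh30, with 37.7% of 18669 genes called higher and 40.3% called lower. TFAP2B, NOS1 and OLIG2 again entered the fit only through their Rh30 values and had to differ. The 6 genes at 1 FPKM or more in both lines were all called higher. JARID2 differed by 1.52-fold and FGFR4 by 4.93-fold, close to the ratios with Scramble. PAX3 differed by 9.41-fold, FOXO1 by 14.5-fold and ALK by 26.4-fold, each more than with Scramble, while PIPOX differed by 37.5-fold. The log2 differences were 5.89 for NOS1, 4.03 for TFAP2B and 3.96 for OLIG2. Whether these differences changed with the shRNA is the interaction tested below.

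**Figure D3:**
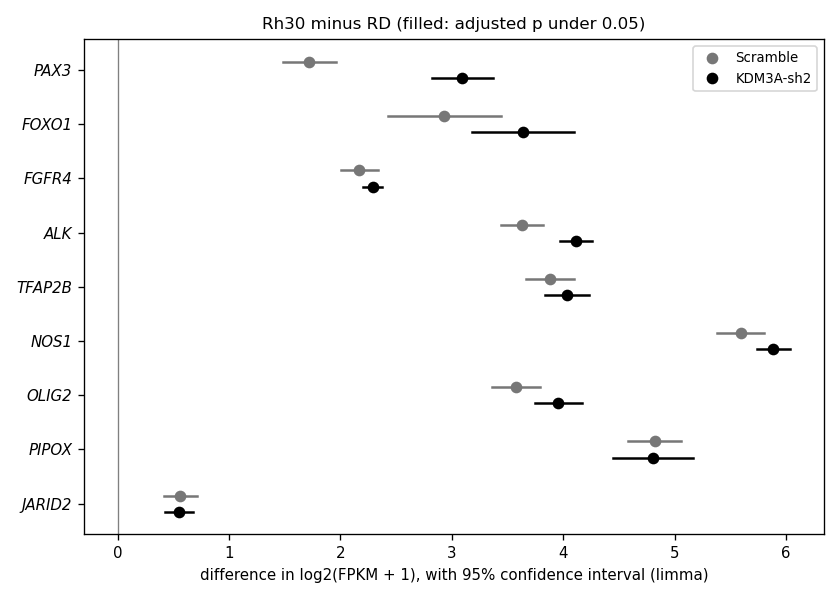
Differences between Rh30 and RD in log2(FPKM + 1), with 95% confidence intervals from limma, for the 9 genes in Scramble (grey) and KDM3A-sh2 (black) libraries. All intervals lie above 0, from JARID2 near 0.56 to NOS1 at 5.59 and 5.89, and the intervals of PAX3 at 1.72 and 3.10 do not overlap.

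The second comparison asked how the same genes moved with KDM3A-sh2. In RD, 6 of the 9 genes passed the filter of a mean of 1 FPKM, of which 2 were downregulated, 1 was upregulated and 3 were not called, while 19.5% of 17988 genes were called lower and 21.6% higher. PAX3 fell 1.97 times (log2 difference -0.91, SE 0.12, limma adjusted p = 0.00130), the largest change of the 6, and kept its call under every alternative tried. FGFR4 fell 1.28 times (-0.36, SE 0.05, adjusted p = 0.00137). JARID2 rose 1.19-fold (0.23, SE 0.06, adjusted p = 0.0275), but leaving out any of the 6 RD libraries took this call away, with adjusted p-values from 0.0540 to 0.0790.

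The remaining RD genes gave no call. The FOXO1 difference was -0.09 with a 95% confidence interval from -0.53 to 0.35 (limma adjusted p = 0.720), and that of ALK was -0.02 with an interval from -0.31 to 0.27 (adjusted p = 0.925). PIPOX differed by 0.40 with an interval from -0.04 to 0.85 (adjusted p = 0.133), and without RD KDM3A-sh2 replicate 3 by 0.24. It was called when all 12 libraries shared 1 estimate of the spread (adjusted p = 0.0331). TFAP2B, NOS1 and OLIG2 were below the filter, and an exact two-sided permutation test over 3 against 3 libraries, whose smallest possible p is 0.1, gave p = 0.5, 1.0 and 1.0. At these levels a fall in RD was not detectable.

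In Rh30, all 9 genes were tested, of which 6 were upregulated, 1 was downregulated and 2 were not called, against 15.3% of 17803 genes called higher and 13.2% called lower. The median difference of the 9 genes was 0.38 on the log2 scale, and that of all genes was 0.03. None of the 9 genes overlapped between the 2 groups, and this includes FOXO1 and TFAP2B, which were not called. With 3 against 3 libraries, such separation gives an exact two-sided permutation p of 0.1, the smallest possible. The share of all genes without overlap was not counted, so the separation is no result about the 9 genes. By another measure, 7368 of the 17803 had an unadjusted limma p under 0.05. None of the 7 changes reached 1.5-fold. PAX3 rose 1.38-fold (0.47, SE 0.09, limma adjusted p = 0.0118), ALK 1.39-fold (0.46, SE 0.04, adjusted p = 0.000572) and PIPOX 1.31-fold (0.39, SE 0.05, adjusted p = 0.00168). OLIG2 rose 1.33-fold (0.38, SE 0.07, adjusted p = 0.00911) and NOS1 1.20-fold (0.26, SE 0.05, adjusted p = 0.0129). On unlogged FPKM, gene by gene, the PAX3 call was lost (adjusted p = 0.0549).

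JARID2 and FGFR4 passed the test in Rh30 by a small margin. JARID2 rose 1.17-fold (0.21, SE 0.05, limma adjusted p = 0.0265), and its call remained only when Rh30 Scramble replicate 2 was the library left out. FGFR4 fell 1.18 times (-0.24, SE 0.06, adjusted p = 0.0299), and its call remained only without Rh30 Scramble replicate 3 or Rh30 KDM3A-sh2 replicate 3. Leaving out the other libraries gave adjusted p-values up to 0.0812 for JARID2 and 0.0899 for FGFR4. The FGFR4 call was also lost without the filter on low values, without the variance trend and on unlogged FPKM.

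FOXO1 and TFAP2B were not called in Rh30. FOXO1 had the largest difference of the 9, at 1.51-fold, with a wide interval (0.61, 95% confidence interval 0.10 to 1.13, limma adjusted p = 0.0771), and without Rh30 Scramble replicate 3 its difference was 0.37. TFAP2B was 1.15-fold higher in mean FPKM (0.18, 95% confidence interval 0.03 to 0.34, adjusted p = 0.0755). The same Scramble libraries serve in the line and knockdown comparisons, so the 2 sets of differences are not independent.

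**Figure D4:**
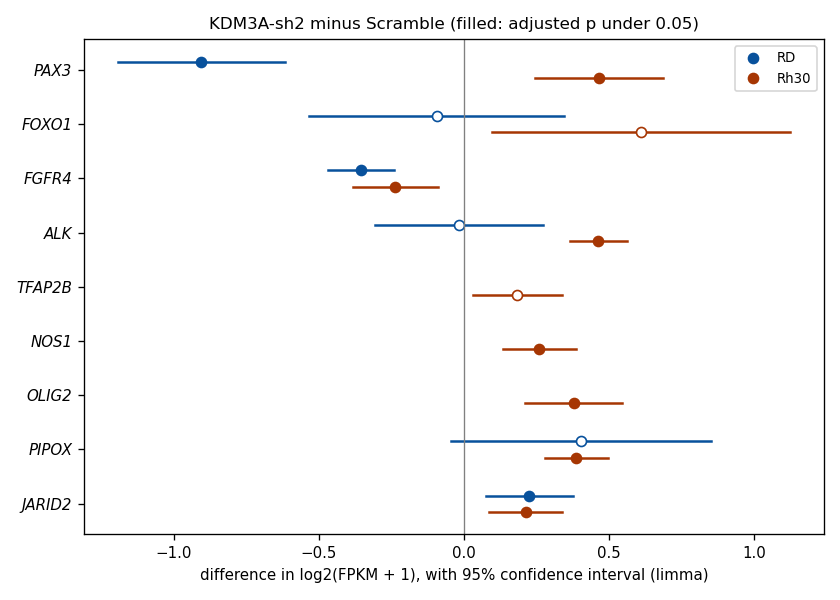
Differences between KDM3A-sh2 and Scramble in log2(FPKM + 1), with 95% confidence intervals from limma, in RD (blue) and Rh30 (orange), where filled points passed an adjusted p of 0.05. PAX3 lies at -0.91 in RD and 0.47 in Rh30, FGFR4 lies below 0 and JARID2 above 0 in both lines, and TFAP2B, NOS1 and OLIG2 have no RD point because they were below the filter there.

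The third comparison tested whether the KDM3A-sh2 effect differed between the lines, as the interaction of line and shRNA over all 12 libraries. Of the 9 genes 3 were called, all with a higher effect in Rh30, against 14.4% of 18517 genes called higher and 13.4% called lower. The PAX3 effect was 1.37 higher in Rh30 on the log2 scale (SE 0.16, limma adjusted p = 0.000145), from -0.91 in RD and 0.47 in Rh30. The ALK effect was 0.48 higher (SE 0.09, adjusted p = 0.00322), from -0.02 and 0.46. The OLIG2 effect was 0.38 higher (SE 0.11, adjusted p = 0.0219), and as OLIG2 was at the floor in RD this is its Rh30 change alone. That call was lost with a pseudocount of 0.1 (adjusted p = 0.199), when 10 FPKM was required in some library (0.0629), without Rh30 Scramble replicate 3 (0.0538) and without Rh30 KDM3A-sh2 replicate 1 (0.0634).

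The other 6 genes gave no call for a difference between lines. The interaction was 0.30 for NOS1 (limma adjusted p = 0.0519), and it was called without RD Scramble replicate 2, RD Scramble replicate 3 or Rh30 Scramble replicate 1 (0.0459 to 0.0493). For FOXO1 it was 0.70 with a 95% confidence interval from 0.01 to 1.39 (adjusted p = 0.122), and for TFAP2B 0.16 with an interval from -0.08 to 0.39. NOS1 and TFAP2B were at the floor in RD, so their interactions are mainly their Rh30 changes of 0.26 and 0.18. For FGFR4 the interaction was 0.12 with an interval from -0.06 to 0.30. PIPOX and JARID2 had differences of -0.02 and -0.01, with intervals from -0.44 to 0.41 and from -0.16 to 0.14. KDM3A itself fell by 1.39 in RD and by 1.02 in Rh30 on the log2 scale (adjusted p = 5e-05 and 0.000348), and this difference of 0.37 in depletion was also called (adjusted p = 0.0388), although leaving out any of 8 of the 12 libraries took the call away. Its part in the interactions above was not tested.

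A further 22 genes reported as targets of the fusion were compared in the same fits. With Scramble shRNA, 20 of the 22 were higher in Rh30 and 2, BCL2L1 and IGF1R, were lower, against 35.0% and 39.6% of all genes. The median difference was 2.45, against -0.04 over all genes. Of the 22, 8 were under 1 FPKM in RD, entered the fit only through Rh30 and had to be higher there. Of the other 14, 12 were higher and 2 lower. The list was chosen as reported fusion targets, so its direction is no independent result. The 3 with the largest differences were FGF8, a secreted fibroblast growth factor, with a mean of 173 FPKM in Rh30 and 0.674 FPKM in RD, DCX, a microtubule-binding protein of migrating neurons, with 95.6 and 0.300 FPKM, and PRDM12, a regulator of sensory neuron development, with 85.9 and 0.346 FPKM. With KDM3A-sh2, 19 of the 22 were higher and 2, BCL2L1 and RASSF4, were lower, against 37.7% and 40.3% of all genes. The same 8 genes were again under 1 FPKM in RD, and of the other 14, 11 were higher.

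These further targets moved both ways with KDM3A-sh2. In Rh30, 9 of 22 rose and 5 fell, with a median of 0.14, against 15.3% of all genes called higher, 13.2% called lower and a median of 0.03. Those that fell were FGF8 from 173 to 96.7 FPKM (log2 difference -0.83), RASSF4, a Ras association domain protein, from 43.1 to 23.9 FPKM (-0.83), the apoptosis inhibitor BCL2L1 from 67.1 to 39.2 FPKM (-0.76), FOXF1 (-0.26) and SKP2 (-0.20). The FOXF1 call was lost in 8 of 16 alternatives, which include leaving out any Rh30 library but Scramble replicate 3 (limma adjusted p up to 0.0880). In RD, 14 passed the filter, of which 3 rose, namely the neuronal transcription factor POU4F1 (0.57), BCL2L1 (0.35) and the interleukin 4 receptor IL4R (0.33), and 3 fell, namely KCNN3 (-0.24), MYOD1 (-0.24) and MYOG (-0.14). These shares are close to the 21.6% and 19.5% over all genes, and the calls of KCNN3 and MYOG were lost in 11 and 12 of 16 alternatives. Among the libraries left out in turn, the KCNN3 call remained only without RD Scramble replicate 3 and the MYOG call only without RD Scramble replicate 1, and otherwise adjusted p-values reached 0.116 and 0.138. The interaction was called higher for 7 and lower for 5 of the 22, against 14.4% and 13.4% of all genes. For the 8 genes under 1 FPKM in RD, the interaction is mainly the Rh30 change. Among these 8 were FGF8 (-0.82), DCX (0.50) and PRDM12 (0.28), and the PRDM12 call was lost in 16 of 21 alternatives. MYOD1 and MYOG, the myogenic regulators counted here, are also among the muscle markers above. In Rh30 their differences were 0.28 for MYOD1, whose call was lost when any 1 of the 3 Rh30 KDM3A-sh2 libraries was left out (limma adjusted p from 0.0509 to 0.0730), and 0.56 for MYOG.

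**Figure D5:**
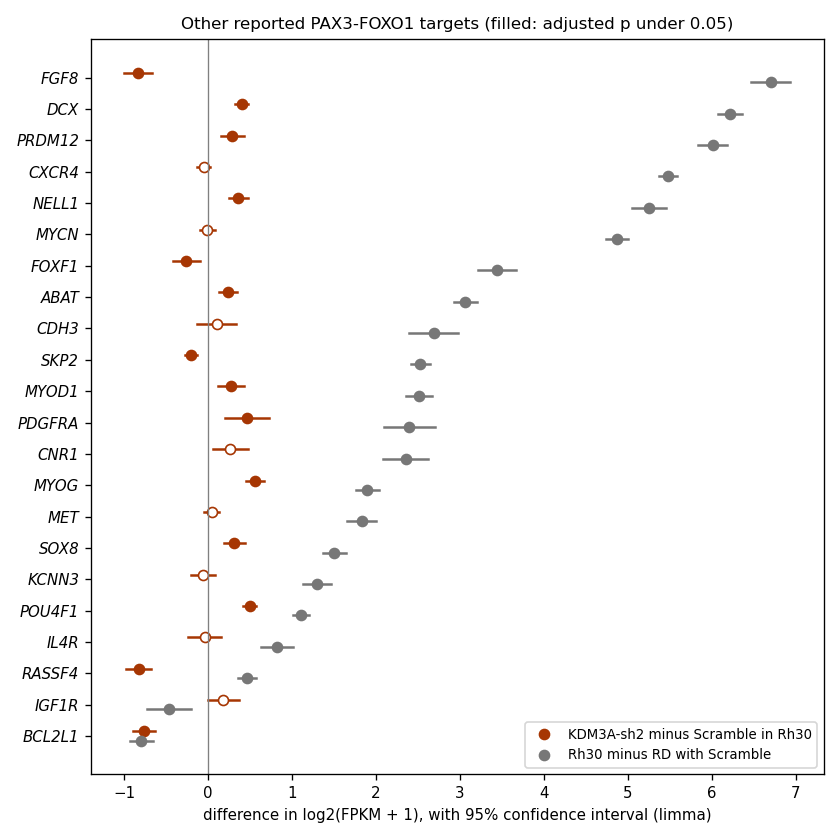
The 22 further reported targets, ordered by the difference between Rh30 and RD with Scramble (grey), with the difference between KDM3A-sh2 and Scramble in Rh30 (orange), both in log2(FPKM + 1) with 95% confidence intervals from limma and filled where the adjusted p was under 0.05. Line differences reach 6.70 for FGF8, whereas the KDM3A-sh2 differences lie on both sides of 0, between -0.83 and 0.56.

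Among 11 relatives of the fusion partners, 7 were tested between the lines with Scramble. PAX7 passed the filter through RD alone and PAX5 through Rh30 alone, and of the other 5, 3 were higher and 1 lower in Rh30, against 35.0% and 39.6% of all genes. PAX7, the closest relative of PAX3 and the marker of muscle satellite cells, was at 25.2 FPKM in RD Scramble and 0.068 FPKM in Rh30 Scramble. It fell to 14.3 FPKM with KDM3A-sh2 in RD (log2 difference -0.78, limma adjusted p = 7.51e-05), in the same direction as PAX3 in that line. PAX5 and FOXO6 were higher in Rh30, by 1.62 and 1.43 on the log2 scale. In RD 2 of 6 tested relatives fell with KDM3A-sh2, PAX7 and PAX6 (-0.66), against 19.5% of all genes, and the PAX6 call was lost without RD Scramble replicate 2 or 3 (limma adjusted p = 0.0551 and 0.0519). In Rh30 3 of 6 rose, PAX5 (0.80), FOXO4 (0.59) and FOXO3 (0.20), against 15.3% of all genes. FOXO4 kept its call under the 16 alternatives tried, whereas PAX5 lost it in 9 of 15 and FOXO3 in 12 of 16. Leaving out a library took the PAX5 call away for each library but Rh30 Scramble replicate 2, and the FOXO3 call for each but Rh30 KDM3A-sh2 replicate 2, with adjusted p-values up to 0.124 and 0.136.

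Of 10 genes known as targets of normal FOXO1, 9 were tested with Scramble, and 4 were higher and 4 lower in Rh30, near the shares of 35.0% and 39.6% over all genes. Their median difference was 0.08, against -0.04 over all genes. BCL6, a transcriptional repressor, was lower by 2.48 on the log2 scale, and FBXO32 and TRIM63, the muscle atrophy ubiquitin ligases, were lower by 2.20 and 1.51, TRIM63 having passed the filter through RD alone. With KDM3A-sh2, 3 rose and 1 fell of 10 tested in RD, and 1 rose of 8 tested in Rh30, against 21.6% higher and 19.5% lower over all genes in RD and 15.3% higher in Rh30.

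Of 8 ligands and coreceptors of FGFR4 and ALK, 4 passed the filter with Scramble. Of these, FGF1 and PTN passed through RD alone and had to be lower in Rh30, and the 2 genes at 1 FPKM or more in both lines, MDK and FGF2, were both called lower, a direction that 39.6% of all genes took. FGF1, which binds all FGF receptors, had 20.7 FPKM in RD and 0.060 FPKM in Rh30, while MDK and PTN, reported to act on ALK, were lower by 1.57 and 1.55 on the log2 scale. With KDM3A-sh2, MDK (-0.45) and PTN (-0.57) fell among 4 tested in RD, against 19.5% of all genes. Of 2 tested in Rh30, FGF2 fell (-0.45), against 13.2% of all genes. Among 13 paralogs of the target genes, 7 were tested between the lines with Scramble. FGFR2 and FGFR3 passed through Rh30 alone and had to be higher. Of the other 5, 3 were higher and 2 lower, against 35.0% and 39.6% of all genes. FGFR2 had 28.9 FPKM in Rh30 and 0.530 FPKM in RD, TFAP2E had 19.6 and 1.25 FPKM, and TFAP2A had 17.3 and 1.21 FPKM. With KDM3A-sh2, 5 of 8 tested paralogs rose in Rh30 and 1 fell, against 15.3% and 13.2% of all genes. In RD 2 of 4 rose, against 21.6% of all genes. OLIG1 in Rh30 and TFAP2E in RD were under 1 FPKM in 1 of the groups compared, and neither was called.

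JARID2 works in PRC2, which places the repressive H3K27 methyl mark. Of 10 PRC2 partners, 7 fell and 1 rose with KDM3A-sh2 in RD, where 19.5% of all genes were called lower and 21.6% higher. In Rh30, 4 of the 10 fell and none rose, where 13.2% of all genes were called lower and 15.3% higher. The median difference was -0.25 in RD and -0.03 in Rh30, against 0.01 and 0.03 over all genes. Between the lines 7 were higher and 2 lower in Rh30 with Scramble, against 35.0% and 39.6% of all genes. PHF19 was lower by 1.93 on the log2 scale, while RBBP7 and SUZ12 were higher by 1.27 and 1.15. The interaction was called for 6 of the 10, all with a higher effect in Rh30, against 14.4% of all genes. Among the calls with KDM3A-sh2 in Rh30, that of PHF19 (-0.23, limma adjusted p = 0.0447) was lost in 10 of 16 alternatives. With single libraries left out, it remained only without Rh30 KDM3A-sh2 replicate 2.

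As a contrast, 3 genes reported as markers of FN-RMS were examined. EGFR and HMGA2 were lower in Rh30 than in RD with Scramble, by 1.59 and 1.41 on the log2 scale, and FBN2 was higher by 0.81, against its label as a marker of FN-RMS. With KDM3A-sh2, HMGA2 fell by 0.97 in RD and by 0.74 in Rh30, and FBN2 fell by 0.71 and 0.87. EGFR was not called in either line, with differences of -0.22 and -0.07.

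The genes most like PAX3, FOXO1, FGFR4 and JARID2 in pattern over the 12 libraries were found by the root-mean-square difference of centred log2(FPKM + 1) values among 18508 genes. For PAX3 these were METRN, TMEM97 and DANCR, with differences of 0.15, 0.15 and 0.17 around a root-mean-square variation of PAX3 itself of 1.26. FGFR4 was followed most closely by ACTC1, cardiac alpha-actin (0.08), then the muscle cadherin CDH15 (0.10) and the potassium channel KCNH2 (0.11). FOXO1 had only looser companions, LINC00945, ZNF257 and GATA4 (0.22 to 0.25), and JARID2 had THAP3, ARRDC4 and RBM15B (0.04 to 0.05). Among the 9 genes, ALK and OLIG2 were the most alike pair (0.10). All points come from 2 lines, so these likenesses follow mainly the difference between the lines.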

How the data were processed

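RD and Rh30 cells with Scramble or KDM3A-sh2 shRNA were profiled by directional mRNA sequencing of poly(A) RNA, with 3 libraries per group. Per the labels and the submitters' processing notes, the authors aligned reads with GSNAP to GRCh38 and made FPKM values with Cufflinks. The annotation release and the use of strand in counting are not given in the sources used here, so reads of overlapping antisense genes cannot be told apart, and paralogs may share reads. The deposited table held 66095 entries. The 117 identifiers listed more than once kept the entry with the highest mean, and 17 genes with the placeholder 999999999, none of the 9 among them, were left out of fits that needed the value.

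Values were tested as log2(FPKM + 1) with limma 3.58.1 in R 4.3.3 (eBayes with trend, two-sided), over genes whose mean reached 1 FPKM across the fitted samples, with Benjamini-Hochberg adjustment over all of these and a threshold of 0.05. A difference on this scale understates the change of low genes. A gene-by-gene test on unlogged FPKM was run as an alternative. The study's methods name a test on FPKM without saying whether values were logged. Folds are ratios of mean FPKM. Depth was estimated from the smallest steps in FPKM of 4719 single-transcript genes. The procedure was tested on simulated data. Replicate numbers did not pair the libraries: deviations of same-numbered libraries correlated at -0.12 to 0.08.

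Coordinates and exons are from GENCODE 29, which holds 86.3% of the identifiers, and promoters are from RefSeq. The 9 genes and all lists were chosen with earlier results of these data known. From each list, the 3 tested genes with the largest line difference with Scramble were named, and from the further targets also the 3 called genes that changed most with KDM3A-sh2 in each line. Others were named after their values were seen. Reads, junctions and isoforms were not analysed here.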

Additional observations from a re-analysis of the deposited data

Results flagged for a closer look

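A test of the difference in the KDM3A-sh2 effect between Rh30 and RD (limma interaction over 12 libraries) called PAX3, ALK, OLIG2 and KDM3A. The difference in log2(FPKM + 1) was 1.37 for PAX3, where all 3 KDM3A-sh2 libraries lay below the Scramble libraries in RD and all 3 lay above them in Rh30. It was 0.48 for ALK, whose RD groups overlapped, and 0.38 for OLIG2, which was at or near 0 in every RD library, so that the value is its Rh30 change alone and its call was lost with a pseudocount of 0.1 (limma adjusted p = 0.199). For KDM3A it was 0.37, with a smaller fall in Rh30 than in RD, and this call was lost when any of 8 of the 12 libraries was left out. Groups of 3 libraries are too small for a test of single outlying libraries.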

How the results depend on the processing

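For the 9 genes, 42 results were recomputed in 713 alternatives, of which 648 kept direction and call, 40 lost the call, 7 gained one and 18 changed sign. For the other named genes, 155 results had 2608 alternatives, of which 2398 kept direction and call. Beyond the values given with the results, the causes of these changes were not tested. With a requirement of 1.5-fold, set as 0.58 on the log2(FPKM + 1) scale and not as a ratio of mean FPKM, 1 of the 3 calls for KDM3A-sh2 in RD was left, 0 of the 7 in Rh30 and 1 of the 3 interactions, and the line comparisons lost JARID2 alone. Tested gene by gene on unlogged FPKM, the interaction gave 6 calls. With the replicate number as a replicate block, which does not pair these libraries, the calls in Rh30 went from 7 to 4 and those in RD from 3 to 2, and the interaction count was 3.

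Leaving out single libraries, the RD difference ranged from -0.28 to 0.017 for FOXO1, from -0.069 to 0.046 for ALK and from -0.018 to 0.084 for FOXO6, and the interaction ranged from -0.16 to 0.15 for PIPOX, from -0.033 to 0.0069 for JARID2 and from -0.029 to 0.13 for FOXO6. The Rh30 difference ranged from -0.12 to 0.017 for IL4R, from -0.11 to 0.011 for EGFR, from -0.28 to 0.097 for FBXO32 and from -0.069 to 0.039 for SUZ12. ALK in RD became 0.0050 when libraries were rescaled to the same sum, and with a pseudocount of 0.1 the interaction became -0.020 for TFAP2B and 0.31 for CD68. On unlogged FPKM the interactions were -54.3 FPKM for FGFR4, 23.0 for PIPOX (adjusted p = 0.00049), 0.571 for JARID2, 17.5 for POU4F1 and 0.036 for BCL6.

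Rescaling to the same sum moved the median line difference of all genes by -0.10 with Scramble and -0.15 with KDM3A-sh2, against which each line difference of the 9 genes stayed above 0, and the interaction calls over all genes from 2665 higher and 2486 lower to 2061 higher and 3015 lower. Depth limits TFAP2B, NOS1 and OLIG2 in RD, where a fall was not detectable. There they had at most about 41.6 fragments in a library, reached by NOS1 in RD Scramble replicate 1. These fragment numbers are estimates that take the longest coding transcript of each gene.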
